A study of Mus musculus with 24 samples.

Results

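The effect of HOIL1 loss was examined in ileal CD45+ cells from mice that kept Il4ra in the intestinal epithelium. The comparison used 6 of the 24 samples of the series, chosen by their genotype and sorted fraction. Hoil1-/-Il4ra flox/flox mice gave samples 13, 14 and 15, and Hoil1+/+Il4ra flox/flox mice gave samples 12, 18 and 19. All 6 carried floxed Il4ra alleles without Vil1cre (written f/f), so that Il4ra was intact in both groups. The other 6 CD45+ samples came from mice of both Hoil1 genotypes with Vil1cre, which deletes Il4ra in intestinal epithelial cells (ΔIEC). The remaining samples were CD45- cells, which were not used here.

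The sample labels give the strain of the mice as C57BL/6, and the study's methods give it as C57BL/6 J. The Hoil1+/+ f/f mice were 9.1, 9.9 and 9 weeks old (samples 12, 18 and 19), and the Hoil1-/- f/f mice were 9, 9.9 and 9.4 weeks old (samples 13, 14 and 15). The Hoil1+/+ ΔIEC mice were 9.7, 9.7 and 9 weeks old (samples 20, 21 and 22). The Hoil1-/- ΔIEC mice were 9.6, 9.6 and 9.1 weeks old (samples 16, 17 and 24), and the authors left out sample 24. The Hoil1-/- allele is carried by all cells of the mouse and is a partial loss, since a short N-terminal form of the protein remains. Peyer's patches were taken out before digestion, and a portion of the released epithelial fraction, which also holds intraepithelial lymphocytes, was added back to the lamina propria cells before the sort on CD45. Live CD45+ cells of all types were therefore sequenced together, and fewer cells of a type and less RNA per cell cannot be told apart.

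HOIL1, encoded by Rbck1, joins HOIP (Rnf31) and SHARPIN in the linear ubiquitin chain assembly complex (LUBAC), which tags signaling proteins downstream of TNF receptors, IL-1 receptors and toll-like receptors, so that NF-kB is activated and cell death restrained. Group 2 innate lymphoid cells (ILC2) are tissue lymphocytes that depend on GATA3, respond to IL-25, IL-33 and neuropeptides, and release IL-5 and IL-13. In the small intestine IL-13 acts on the epithelium through IL4Rα and increases goblet and tuft cells.

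The promoters of 3 genes of the ILC2 list are shown, those of its main cytokines and of the IL-33 receptor, as examples with and without the motif described next. Each is the RefSeq window of GRCm38.p6 from 250 bases before to 50 bases after the start of the gene, written 5′ to 3′ on the strand of the gene, with AGATAA, a form of the motif bound by GATA factors, or its reverse complement TTATCT in capitals. Il5 (chr11:53720544-53720843, plus strand) held no match and Il13 (chr11:53634653-53634952, minus strand) held 1. Il1rl1 has 2 windows with 1 match each, and the upstream one is shown (chr1:40429320-40429619, plus strand).
Il5: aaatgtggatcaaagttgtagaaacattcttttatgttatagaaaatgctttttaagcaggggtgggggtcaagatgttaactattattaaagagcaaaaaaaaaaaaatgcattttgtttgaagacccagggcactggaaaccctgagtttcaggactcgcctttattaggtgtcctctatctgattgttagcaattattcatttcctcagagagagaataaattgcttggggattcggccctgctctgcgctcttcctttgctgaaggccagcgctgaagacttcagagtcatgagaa
Il13: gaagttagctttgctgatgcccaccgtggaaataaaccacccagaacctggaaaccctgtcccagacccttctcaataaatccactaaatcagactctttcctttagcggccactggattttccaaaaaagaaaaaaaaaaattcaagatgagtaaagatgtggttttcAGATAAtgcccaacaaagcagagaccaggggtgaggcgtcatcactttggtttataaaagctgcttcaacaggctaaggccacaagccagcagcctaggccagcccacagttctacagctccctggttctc
Il1rl1: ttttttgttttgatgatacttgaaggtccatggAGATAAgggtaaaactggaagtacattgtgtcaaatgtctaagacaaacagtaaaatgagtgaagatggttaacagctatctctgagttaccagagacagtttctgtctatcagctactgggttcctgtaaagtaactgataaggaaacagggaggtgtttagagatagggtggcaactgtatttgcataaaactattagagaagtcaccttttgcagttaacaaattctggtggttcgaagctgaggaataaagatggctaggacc

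Of the 20 genes of the ILC2 list, 17 had a promoter in the RefSeq table, and 4 of these (23.5%) held the motif on either strand in at least 1 window. The windows of Nmur1, Il17rb and Gata3 held none, so that the genes shown do not stand for the list. Over all 27025 genes with a promoter the share was 12.7%. A match describes letters in these windows and is no measure of binding.

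The reads counted on genes numbered 60479335, 76807504 and 55423267 in Hoil1+/+ samples 12, 18 and 19, and 27191458, 52267821 and 41721798 in Hoil1-/- samples 13, 14 and 15. Levels are given in this order as CPM, read counts scaled to the library size after TMM normalization. Ptprc, which encodes CD45, was at 309, 585 and 358 CPM in Hoil1+/+ and at 408, 557 and 538 CPM in Hoil1-/- samples. The sorted gate was thus seen in all 6 samples at overlapping levels. The epithelial gene Epcam was present at 37.5, 46.2 and 37.5 CPM against 60.1, 26.8 and 58.9 CPM, so some epithelial RNA was measured in each sample.

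The samples differed in composition within each genotype. Immunoglobulin genes took 33.9, 17.7 and 43.6% of the counts in Hoil1+/+ samples and 12.5, 20.8 and 44.0% in Hoil1-/- samples. Sample 13, which the authors left out, had the fewest genes detected (13534), the largest mitochondrial share (8.96%, against 1.66 to 5.14% in the other 5) and the lowest median correlation of log2 CPM with the other 5 samples, at 0.878 against 0.919 to 0.927. Results are given with it, and the values that its removal turned or moved most are also given without it. Xist was at 175 and 208 CPM in Hoil1-/- samples 13 and 14 and at no more than 0.693 CPM in the other 4, and Ddx3y, on the Y chromosome, was at 25.2 to 41.5 CPM in those 4 and at 0 and 0.573 CPM in samples 13 and 14. The samples with Xist were thus both Hoil1-/-, and sex and genotype can be told apart only through sample 15.

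Rbck1 (ENSMUSG00000027466.15, minus strand, chr2:152316334-152332653 of GRCm38) checked the genotype labels. It was at 109, 125 and 79.5 CPM in Hoil1+/+ and at 4.72, 9.13 and 4.74 CPM in Hoil1-/- samples. All 3 Hoil1-/- samples lay far below all 3 Hoil1+/+ samples. The gene fell from 105 ± 23.2 to 6.2 ± 2.54 CPM (SD, n = 3 each), a log2 fold change of -4.07 (SE 0.40; Benjamini-Hochberg adjusted p = 0.0066 over 16060 genes, quasi-likelihood test of edgeR). Without sample 13 the size was nearly as large, -3.90 (SE 0.47), but the adjusted p was 0.105 (edgeR), and without sample 15 they were -3.89 and 0.113.

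Rbck1 was the only gene of the 16060 tested with an adjusted p under 0.05, so 0.00623% of genes were called lower and 0% higher. Without sample 13 no gene passed in either direction. At an unadjusted p under 0.05 there were 287 genes higher (1.79%) and 215 lower (1.34%) in Hoil1-/- cells. Other tests called more genes. DESeq2 called 43 genes higher (0.268%) and 20 lower (0.125%), and edgeR's exactTest on the 6 samples called 14 of 14428 higher (0.0970%) and 2 lower (0.0139%). Of the DESeq2 calls, 25 of 43 and 12 of 20 had groups that overlapped. In 467 genes (2.91%) all 3 Hoil1-/- samples lay above all 3 Hoil1+/+ samples, and in 580 (3.61%) all lay below. In the text that follows, "above" and "below" mean this separation of the groups, and apart from Rbck1 no gene named passed the quasi-likelihood test.

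**Figure D1:**
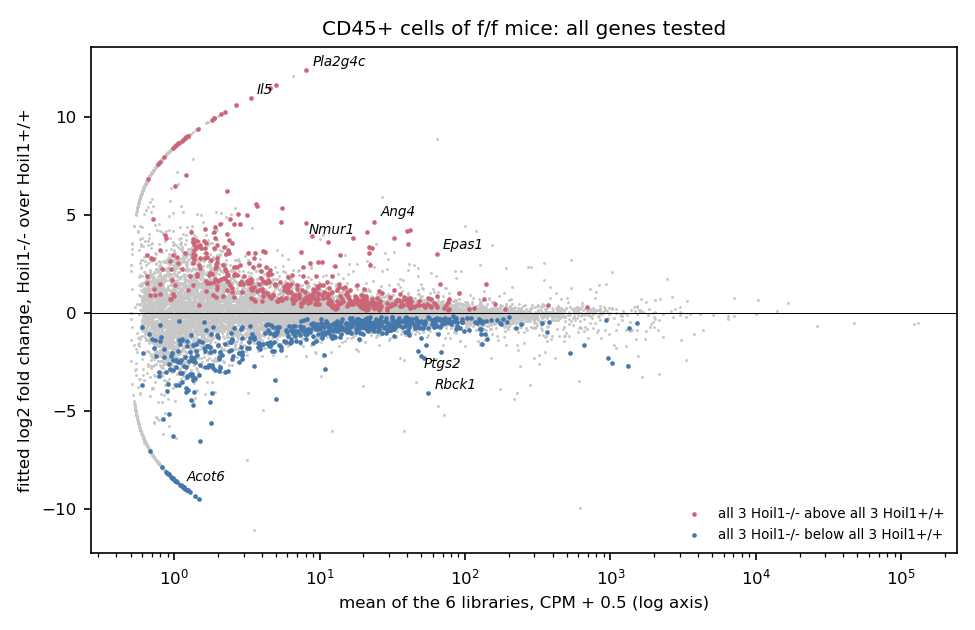
Each point is 1 of the 16060 genes tested, with the mean of the 6 samples (CPM + 0.5, log axis) against the fitted log2 fold change of Hoil1-/- over Hoil1+/+ f/f cells. Red points are the 467 genes above and blue points the 580 genes below in all 3 Hoil1-/- samples. The curved edges are genes at 0 in one group, whose fitted values depend on a prior count, and Rbck1 is the gene that passed the test.

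The other LUBAC subunits were measured at similar levels in both groups. Rnf31, which encodes the catalytic subunit HOIP, was at 34.3, 40.7 and 57.8 CPM against 48.1, 45.0 and 48.4 CPM, a log2 fold change of 0.09 (SE 0.23). Sharpin, the third subunit, was at 26.1, 32.0 and 20.7 CPM against 35.9, 32.8 and 37.4 CPM, a log2 fold change of 0.43 (SE 0.23, adjusted p = 1.00, edgeR). All 3 Hoil1-/- samples were above for Sharpin, by small steps. Spata2, which bridges the deubiquitinase CYLD to LUBAC, was at 35.1, 34.9 and 45.6 CPM against 8.67, 29.3 and 26.1 CPM. Of the 11 genes of linear ubiquitin tested, 1 was above and 2, Rbck1 and Spata2, were below, and the median log2 fold change was 0.01, beside 0 over all genes tested.

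ILC2 genes lay on the higher side in Hoil1-/- cells. Of the 20 list members, all of which were tested, 8 were above, none below and 18 had a positive log2 fold change. The median was 1.44, and 1.82 without sample 13, beside 0 over all genes. It rested in good part on sample 14, without which it was 0.43. This list was written with published and earlier results of these data known. The summed level of its members was 387, 540 and 308 CPM in Hoil1+/+ and 441, 1362 and 502 CPM in Hoil1-/- samples. Sample 14 was the highest of the 6, and samples 13 and 15 lay within the range of the Hoil1+/+ samples. The chemokine receptor gene Ccr9, which other gut lymphocytes also express, was the most abundant member and overlapped between the groups.

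Among the cytokines, Il5 (ENSMUSG00000036117.2, plus strand, chr11:53720794-53725106), which encodes the growth factor of eosinophils, had no count in any Hoil1+/+ f/f sample. It was at 3.49, 12.5 and 1.08 CPM in Hoil1-/- samples. The mean was at least 327-fold higher than the level of 3 counts over the Hoil1+/+ group, and at least 132-fold without sample 14. Il13, the cytokine that acts on the epithelium, was at 0, 0.624 and 2.47 CPM against 11.8, 32.5 and 2.85 CPM. Its 3 Hoil1-/- samples were above, with sample 15 only just so, and the log2 fold change was 3.94 (SE 1.39, adjusted p = 1.00, edgeR), 2.84 without sample 14 and 5.61 without sample 19. Il4 was at 2.37, 1.43 and 2.18 CPM against 3.74, 6.74 and 0.836 CPM and overlapped. Of 8 type 2 cytokine genes, 6 were tested and 2 were above (Il5 and Il13), with a median log2 fold change of 0.93 that was 0.07 without sample 14 and 2.19 without sample 19. Il9 and Il3 had no count in any of the 6 samples.

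The receptors came next. Nmur1 (ENSMUSG00000026237.5, minus strand, chr1:86386303-86426228), the receptor through which neuromedin U from enteric neurons acts on ILC2, was at 3.0, 1.76 and 1.97 CPM in Hoil1+/+ and at 23, 81.6 and 12.8 CPM in Hoil1-/- samples. Every Hoil1-/- sample was above, and the fitted difference was 17.4-fold (log2 4.12, SE 0.72, adjusted p = 0.431, edgeR). Without sample 14 the log2 value was 2.99. Il17rb, a chain of the IL-25 receptor, was at 1.32, 7.41 and 3.93 CPM against 20.8, 130 and 29.6 CPM (log2 3.83, SE 1.23, adjusted p = 1.00, edgeR). Il1rl1, the IL-33 receptor, was at 10.7, 6.06 and 3.83 CPM against 14, 29.3 and 14.1 CPM (log2 1.48, SE 0.48). Both were above in all 3 samples, with sample 14 highest, and without it their log2 values were 2.57 and 1.03. Tnfrsf18, which encodes GITR, was also above, at 12.1, 10.5 and 12.8 CPM against 13.2, 50.2 and 18.9 CPM.

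The receptors for TSLP and IL-7 overlapped between the groups. Crlf2 was at 109, 66.0 and 98.1 CPM against 130, 66.3 and 77.4 CPM, and Il7r at 22.4, 49.4 and 19.9 CPM against 23.5, 150 and 40.1 CPM (log2 1.22 for Il7r, 0.06 without sample 14). Of the 20 genes for receptors of signals to ILC2, 4 were above, none below and 15 had a positive log2 fold change, with a median of 0.79 (1.19 without sample 13 and 0.12 without sample 14). Nmur1, Il17rb, Il1rl1, Il5 and Il13 are also members of the ILC2 list, so these lists repeat genes and are not separate results. Il4ra itself, floxed but not deleted here, was at 96.5, 105 and 239 CPM against 136, 79.4 and 78.6 CPM and overlapped.

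Klrg1 (ENSMUSG00000030114.8, minus strand, chr6:122270596-122282882), an inhibitory receptor on mature and inflammatory ILC2, was the gene of smallest unadjusted p after Rbck1. It was at 4.73, 3.68 and 3.62 CPM in Hoil1+/+ and at 31.1, 70.1 and 20.3 CPM in Hoil1-/- samples. The fitted difference was 10.1-fold (log2 3.34, SE 0.52, adjusted p = 0.314, edgeR; log2 2.68 without sample 14), and it was passed by DESeq2 (adjusted p = 2.06e-07) and by exactTest (adjusted p = 2.87e-05). Calca, the gene of the neuropeptide CGRP, was at 0, 0.590 and 0 CPM against 2.20, 6.5 and 1.55 CPM. Both genes were above in each Hoil1-/- sample.

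Gata3, the transcription factor that ILC2 and Th2 cells need, was at 10.9, 49.6 and 18.4 CPM against 25.9, 219 and 50.0 CPM. The groups overlapped through samples 18 and 13, and without sample 13 all Hoil1-/- samples were above (log2 2.37, SE 0.93, against 1.90, SE 0.92, with it). Without sample 14 the value was 0.53. The lncRNA gene 1700061F12Rik had no count in Hoil1+/+ f/f samples and was at 0, 8.38 and 0.619 CPM in Hoil1-/- samples. In f/f mice it therefore rested on samples 14 and 15. It had no count in Hoil1+/+ ΔIEC samples and was at 3.39, 2.12 and 3.91 CPM in Hoil1-/- ΔIEC samples. Epas1, which encodes HIF-2α, was at 8.27, 20.2 and 12.4 CPM against 42.9, 233 and 62.1 CPM, an 8.27-fold difference (log2 3.05, SE 0.75, adjusted p = 1.00, edgeR), with a log2 value of 1.94 without sample 14. Of 12 hypoxia genes, Epas1 and Egln3 were above, whereas the HIF-1 target Ldha was at 428, 300 and 320 CPM against 416, 334 and 327 CPM, and the median log2 fold change was 0.01 (-0.04 without sample 13).

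**Figure D2:**
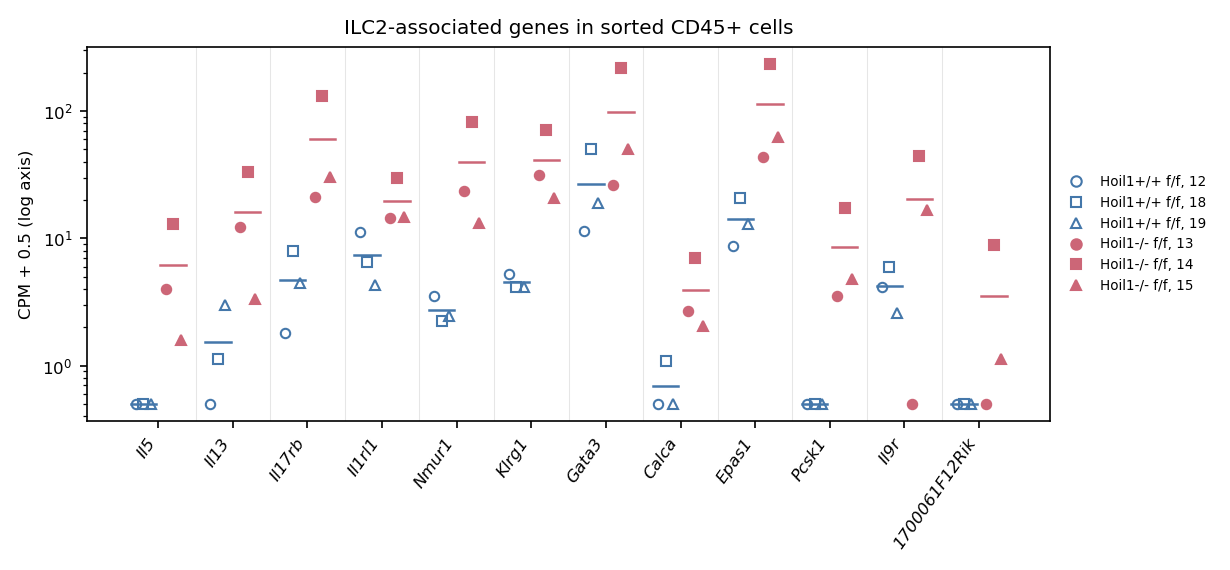
CPM + 0.5 on a log axis for 12 ILC2-associated genes, with open blue symbols for the 3 Hoil1+/+ and filled red symbols for the 3 Hoil1-/- f/f samples, and bars for the group means. Sample 14 (filled squares) is the highest of the 6 for every gene drawn, and Gata3, Il9r and 1700061F12Rik overlap through sample 13 (filled circles).

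The other 2 innate lymphoid lists and the T cell lists showed no such separation. Of 12 ILC3 genes none was above or below (median log2 fold change 0.35, 0.78 without sample 13 and -0.85 without sample 14). Of 11 NK cell and ILC1 genes none was above or below (median 0.38, -0.14 without sample 14 and 1.54 without sample 18). The 14 T cell genes had a median of -0.06 (0.68 without sample 18 and -0.48 without sample 19) with none above or below, and Cd3e was at 132, 881 and 61.2 CPM against 139, 316 and 312 CPM. The 13 genes of intraepithelial and cytotoxic T cells that were tested had a median of -0.70, also with none separated, and 1.08 without sample 18. Hoil1+/+ sample 18 was the highest of all, and its Gzma level was 4839 CPM against 418 to 1526 CPM in the other 5. Of 8 regulatory T cell genes only Tnfrsf18 was above (median 0.76, -0.75 without sample 14), and Foxp3 was at 3.71, 8.89 and 4.71 CPM against 0, 49.4 and 1.80 CPM.

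B cell genes were high in 2 of the 3 Hoil1-/- samples. The median log2 fold change of the 13 B cell genes was 2.16, 2.70 without sample 13 and 1.16 without sample 14, but only 3 were above with all samples (Cd22, Fcer2a and Bank1). Without sample 13 there were 10, where 8.90% of all genes were above and 8.41% below. Pax5, the factor of B cell identity, was at 2.07, 3.38 and 6.17 CPM in Hoil1+/+ and at 1.01, 82.6 and 48.4 CPM in Hoil1-/- samples. Ms4a1, which encodes CD20, was at 8.10, 5.25 and 4.68 CPM against 3.04, 53.3 and 23.9 CPM. Cr2 and Ighd, which mark mature B cells, were also high in samples 14 and 15 alone, while Fcer2a, at 2.32, 1.86 and 2.37 CPM against 3.25, 69.3 and 20.1 CPM, was just above the Hoil1+/+ samples in sample 13. Samples 14 and 15 were thus high for these genes, and sample 13 lay below all Hoil1+/+ f/f samples for Pax5 and Ms4a1.

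In the Hoil1+/+ ΔIEC samples, B cell genes were not low. There Pax5 was at 38.5, 132 and 158 CPM and Ms4a1 at 22.7, 88.0 and 98.4 CPM. In Hoil1-/- ΔIEC samples Pax5 was at 64.5, 105 and 4.23 CPM and Ms4a1 at 21.2, 45.9 and 20.4 CPM. Low B cell levels were thus not found in all Hoil1+/+ samples. They were also found in Hoil1-/- f/f sample 13 and, for Pax5, in the last Hoil1-/- ΔIEC sample, sample 24. The authors left out both of these samples. Cxcr5, the receptor that brings B cells to follicles, was at 1.77, 3.08 and 4.86 CPM in Hoil1+/+ f/f, at 4.51, 51.5 and 20.2 CPM in Hoil1-/- f/f and at 36.0, 121 and 134 CPM in Hoil1+/+ ΔIEC samples. In Hoil1-/- ΔIEC samples it was at 41.7, 98.5 and 2.58 CPM, the last as low as the Hoil1+/+ f/f samples. Plasma cell genes took the larger share of the RNA. Igha was the most abundant of them, at 147710, 51573 and 258045 CPM against 38301, 60220 and 222552 CPM. The 12 plasma cell genes had a median of -0.53 (-0.20 without sample 19 and -1.10 without sample 15), with none above or below. Of 239 immunoglobulin genes tested, 3 were above and 9 below.

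Genes of secretory epithelial cells were also measured in the CD45+ samples. The median log2 fold change of the 12 genes was 2.34 (1.72 without sample 13), 11 were positive and 2 were above, Clca1 and the enteroendocrine gene Chga. Clca1, a secreted goblet cell protein, was at 2.02, 8.15 and 1.99 CPM in Hoil1+/+ and at 110, 10.2 and 116 CPM in Hoil1-/- samples (log2 4.27, SE 1.17, adjusted p = 1.00, edgeR; 5.29 without sample 18 and 3.92 without sample 15). Ang4, an antimicrobial ribonuclease of Paneth and goblet cells with closely related paralogs and not a member of the list, was at 2.07, 1.07 and 2.15 CPM against 105, 15.5 and 13.3 CPM, a 25.4-fold fitted difference (log2 4.66, SE 0.78, adjusted p = 0.394, edgeR). Without sample 13 it was smaller, at 3.04 (SE 0.59).

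Other secretory genes were high in sample 13 or 15 and overlapped with Hoil1+/+ samples. Tff3 was at 2.47, 19.8 and 6.97 CPM against 65.7, 12.6 and 50.7 CPM, and the Paneth cell gene Defa24, whose family members are near-identical in sequence, was at 21.4, 36.9 and 35.2 CPM against 329, 58.8 and 25.7 CPM. The summed level of the list was 72.9, 172 and 128 CPM against 888, 141 and 491 CPM, led by Defa24. Enterocyte genes had a median of 0.36 (1.42 without sample 18 and -0.20 without sample 15) and 1 of 12 above. Tuft cell genes had a median of 0.06 over the 8 of 11 tested, -0.11 without sample 13 and 0.12 with genes that had no count in one group set to the bound of 3 counts. Il25 and Gnat3 were at 0 in all 6 samples. The part of carried-over epithelial RNA in the levels of Clca1 and Ang4 was not tested.

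**Figure D3:**
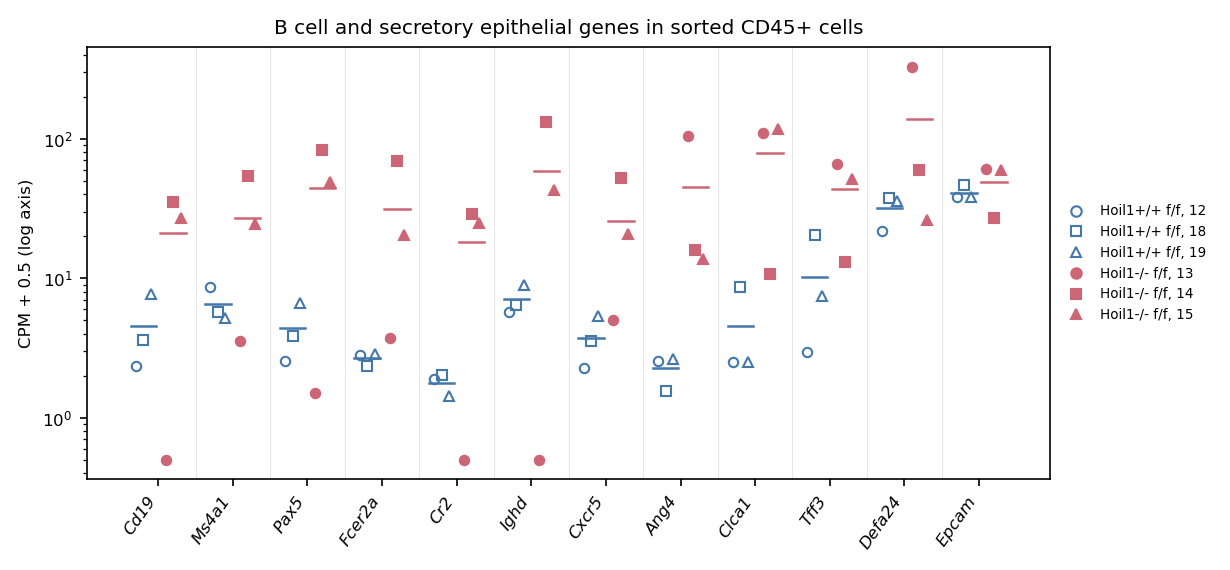
CPM + 0.5 on a log axis for 7 B cell and 5 epithelial genes, with symbols and bars as in the plot of ILC2 genes. The B cell genes are high in Hoil1-/- samples 14 and 15 and low in sample 13, whereas Clca1 and Tff3 are high in samples 13 and 15.

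Genes of the signaling that LUBAC serves lay on the lower side, which rested on Hoil1+/+ sample 19. Of 18 NF-kB genes, 3 were below (Relb, Icam1 and Tnf), none above and 2 had a positive log2 fold change. The median was -0.51, but 0.01 without sample 19, and -0.15 with all 6 samples under scaling to total counts, which by itself moved the median of all genes to 0.16. Tnf was at 66.2, 36.9 and 139 CPM in Hoil1+/+ and at 34.6, 24.2 and 20.3 CPM in Hoil1-/- samples (log2 -1.62, SE 0.56, adjusted p = 1.00, edgeR; -0.94 without sample 19). Icam1, an adhesion molecule induced by NF-kB, was at 129, 121 and 303 CPM against 91.5, 92.5 and 85.6 CPM. Nfkbia, which encodes the inhibitor IκBα and is itself an NF-kB target, was at 638, 386 and 963 CPM against 409, 426 and 160 CPM and overlapped. The subunit genes Rela and Nfkb1 overlapped as well, with log2 fold changes of -0.15 (SE 0.29) and 0.08 (SE 0.35).

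Both TNF receptor genes were below. Tnfrsf1a, which encodes TNFR1, was at 141, 143 and 205 CPM against 119, 77.1 and 83.6 CPM (log2 -0.80, SE 0.25, adjusted p = 1.00, edgeR), and Tnfrsf1b at 178, 204 and 246 CPM against 131, 173 and 122 CPM. Without sample 13 the value for Tnfrsf1a was -1.01 (SE 0.26). Of the 15 genes of TNF signaling and cell death, 3 were below and none above, and the median was -0.03, and 0.16 under scaling to total counts, the same as all genes. The necroptosis genes Ripk1, Ripk3 and Mlkl and the apoptosis gene Casp8 all overlapped. Ptgs2, the inducible cyclooxygenase, was at 39.6, 35.0 and 147 CPM against 25.3, 23.5 and 9.54 CPM (log2 -1.92, SE 0.60; -0.91 without sample 19).

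Genes that respond to tissue dissociation also lay on the lower side. None of the 12 had a positive log2 fold change, the median was -0.88 (-0.33 without sample 19), and their summed level was 8837, 6568 and 20934 CPM against 6977, 7018 and 2373 CPM. Junb was the most abundant. Fosb was the 1 gene below, at 662, 494 and 3607 CPM against 345, 480 and 140 CPM. Hoil1+/+ sample 19 was the highest of the 6 and Hoil1-/- sample 15 the lowest, as they were for Tnf, Nfkbia and Cd83. The summed NF-kB list followed the same order at its ends, at 2152, 2239 and 5755 CPM against 2498, 2281 and 1246 CPM. The part of the dissociation response in the NF-kB values was not tested.

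**Figure D4:**
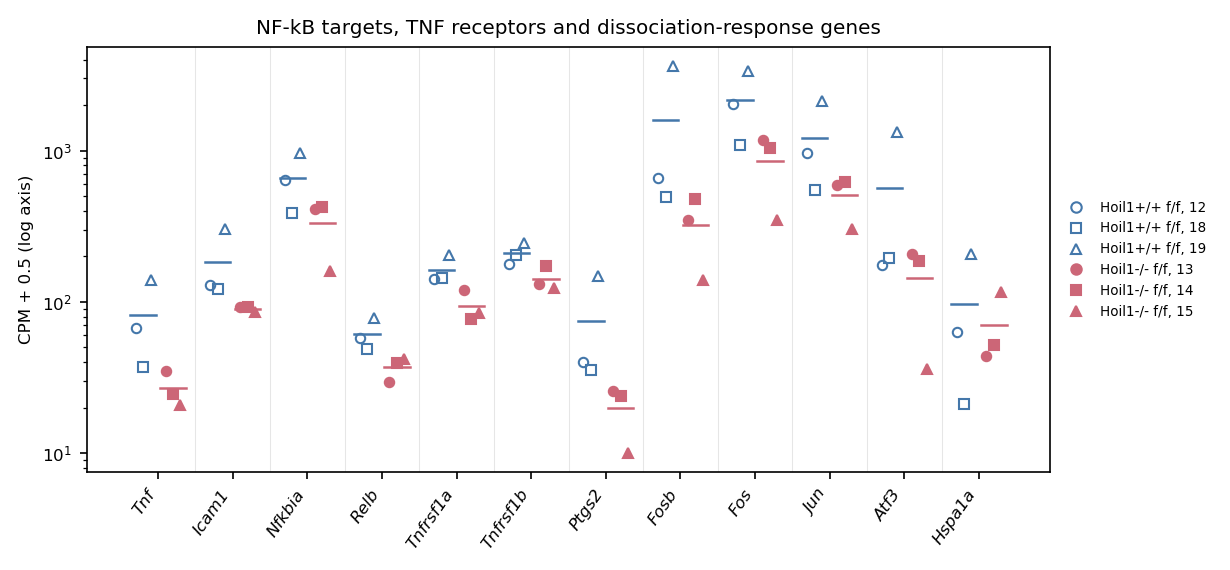
CPM + 0.5 on a log axis for NF-kB targets, TNF receptors, Ptgs2 and 5 dissociation-response genes, with symbols and bars as in the plot of ILC2 genes. Tnf, Icam1, Relb, Tnfrsf1a, Tnfrsf1b, Ptgs2 and Fosb are below in all 3 Hoil1-/- samples, and sample 19 (open triangles) is the highest for every gene drawn.

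Myeloid lists depended on sample 13. The 16 macrophage and monocyte genes had a median of -0.14 with none above or below. When sample 13 was left out, the median was -0.70 and 9 were below. Of all genes, 8.41% were below in this comparison of 2 against 3 samples. Csf1r was at 1110, 902 and 1409 CPM against 1296, 652 and 988 CPM. The medians of 10 MHC class II genes, of which 1 was below, were -0.08 and -0.48 without sample 13, and those of 12 dendritic cell genes, of which 1 was above and 1 below, -0.02 and -0.32. Under scaling to total counts these 3 medians were 0.13, 0.19 and 0.13, near the 0.16 of all genes. Of the 6 eosinophil genes tested, the cells that IL-5 sustains, none was above or below (median 0.39, 1.12 without sample 19 and 0.10 without sample 18), and Siglecf was at 3.05, 4.44 and 10.8 CPM against 11.7, 9.54 and 4.09 CPM. Epx, their defining peroxidase, was at 0 in all 6 samples.

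Of 11 mast cell and basophil genes tested, Gata2, a factor these cells need, was the 1 below, at 14.1, 9.62 and 26.5 CPM against 5.91, 3.07 and 2.38 CPM (log2 -2.15, SE 0.81). The mast cell protease Mcpt1 overlapped, at 1004, 584 and 391 CPM against 758, 236 and 319 CPM, and the list's median was -0.35 (-0.76 without sample 13 and 0.02 without sample 12). The 6 neutrophil genes tested had a median of 0.09, which turned to -0.45 without sample 13. Interferon-stimulated genes had a median of 0.26, with 2 of 16 above, and -0.08 without sample 13. These were Irf7, at 71.7, 45.5 and 63.5 CPM against 206, 72.8 and 87.1 CPM, and Ifit1, at 4.88, 5.99 and 9.44 CPM against 14.9, 12.8 and 11.6 CPM.

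No gene of the remaining lists passed the test. Proliferation genes had a median of -0.08, with 1 of 13 above, homing receptors 0.31 (0.60 without sample 13 and -0.32 without sample 14), with 1 of 12 below, and glycogen genes -0.38, with 1 of 10 below (-0.54 to -0.25 with each sample left out in turn). Endothelial, stromal and glial genes had a median of 0.75, which was -0.12 without sample 13, where Col1a1 was at 60.6 CPM against 2.79 to 15.1 CPM in the other 5. Red blood cell genes had a median of 1.28, and 0.06 without sample 13. Among genes that start within 5 Mb of Rbck1, which are linked to the targeted locus, 124 were tested, 4 were above and 9 below, and the median was -0.10. Under scaling to total counts this median and that of the proliferation genes were 0.09 and 0.07, below the 0.16 of all genes.

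**Figure D5:**
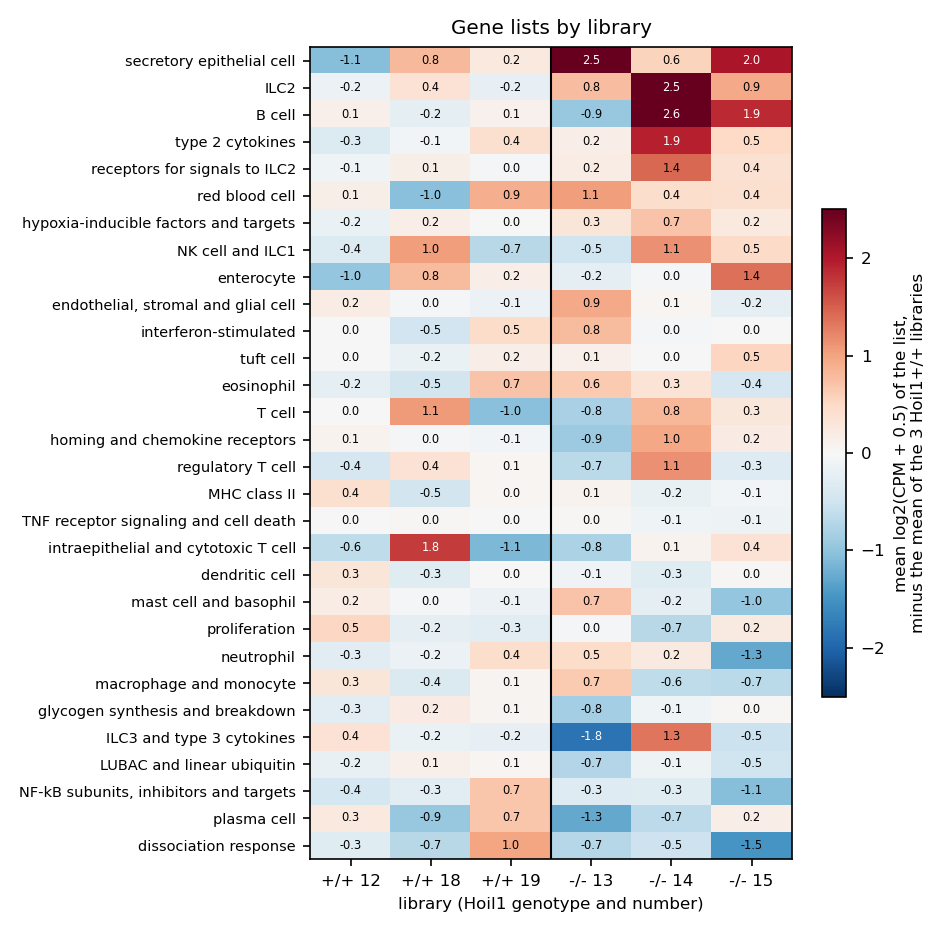
Rows are the gene lists and columns the 6 samples, and colors and numbers give the mean log2(CPM + 0.5) of the list minus the mean of the 3 Hoil1+/+ f/f samples. The ILC2 list is at 0.8, 2.5 and 0.9 in samples 13, 14 and 15, the B cell list at -0.9, 2.6 and 1.9, and the secretory epithelial list at 2.5, 0.6 and 2.0.

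Regardless of the lists, 15 protein-coding genes above were taken by smallest unadjusted p among those with a mean of at least 1 CPM in the Hoil1-/- group, immunoglobulin and T cell receptor segments left out. Besides the genes described before, they included Pcsk1, Pla2g4c, Ffar1, Gm14085, Dkk3, Ptbp2, Scd1 and Lcmt1. Pcsk1, a convertase that cuts prohormones, had no count in Hoil1+/+ f/f samples and was at 3.01, 16.9 and 4.33 CPM in Hoil1-/- samples, a mean at least 465-fold higher than the level of 3 counts over the Hoil1+/+ group (at least 211-fold without sample 14). Pla2g4c, a cytosolic phospholipase, was at 0 in all Hoil1+/+ f/f samples and at 36.8, 1.80 and 6.97 CPM in Hoil1-/- f/f samples, and it had no count in any of the 6 ΔIEC samples. Ffar1, a fatty acid receptor, was at 0 in Hoil1+/+ f/f and at 3.81, 1.45 and 7.77 CPM in Hoil1-/- f/f samples, but at 1.76, 8.82 and 8.01 CPM in Hoil1+/+ ΔIEC and 7.16, 13.4 and 0 CPM in Hoil1-/- ΔIEC samples. Scd1, a fatty acid desaturase, was at 5.07, 7.40 and 6.91 CPM against 11.4, 150 and 59.9 CPM, and at 90.8, 226 and 245 CPM in Hoil1+/+ ΔIEC and 128, 163 and 13.4 CPM in Hoil1-/- ΔIEC samples. DESeq2 called 11 of the 15, and exactTest 10, on the same samples by which the genes were picked. Of all 467 genes above they called 18 and 14.

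The 14 genes taken below in the same way, after Rbck1, were Acot6, Slc31a1, Sema4c, H6pd, Bbs5, Tmem201, Tpst2, Cbwd1, Ptgs2, Tnfrsf1a, Ext1, Rbm4, Atp6v1a and Ephx2. H6pd, a dehydrogenase of the endoplasmic reticulum, was at 38.2, 42.8 and 41.2 CPM against 20.9, 24.2 and 25.1 CPM (log2 -0.80, SE 0.23), and at 21.8, 21.9 and 22.3 CPM in Hoil1+/+ ΔIEC and 18.6, 24.9 and 15.1 CPM in Hoil1-/- ΔIEC samples. Slc31a1, a copper transporter, was at 62.6, 39.1 and 48.7 CPM against 22.6, 28.8 and 26.1 CPM (log2 -0.96, SE 0.26). Acot6, an acyl-CoA thioesterase, was at 0.959, 0.920 and 1.73 CPM and had no count in any Hoil1-/- f/f sample. DESeq2 called 5 of the 14 and exactTest none, again on the samples used to pick them. Of all 580 genes below, Rbck1 included, they called 8 and 2.

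The ΔIEC mice gave a second comparison of the Hoil1 genotypes that shared no sample with the first. Of the 15 genes named above, 5 were also above in Hoil1-/- ΔIEC samples (Nmur1, Klrg1, Il5, Pcsk1 and Ang4), where 4.88% of all genes were. Outside these 15, 1700061F12Rik, Il13 and Il1rl1 were above there as well, whereas Il17rb and Gata3 overlapped. Of the 14 named below, only Acot6 was also below there, where 6.54% of all genes were. Tnfrsf1a and Atp6v1a were above there instead, and the others overlapped. Tnfrsf1a was at 125, 103 and 141 CPM in Hoil1+/+ ΔIEC and at 154, 170 and 174 CPM in Hoil1-/- ΔIEC samples. Atp6v1a was at 58.2, 55.2 and 64.4 CPM against 78.7, 75.3 and 93.0 CPM. Nmur1 was at 1.45, 4.40 and 2.30 CPM in Hoil1+/+ ΔIEC and at 30.7, 17.5 and 13.6 CPM in Hoil1-/- ΔIEC samples. Clca1 was at 10.5, 16.1 and 1.79 CPM against 3.55, 2.29 and 0.235 CPM, and Ang4 at 1.22, 1.47 and 1.48 CPM against 2.10, 1.91 and 2.94 CPM. Tnf was at 38.5, 37.6 and 66.5 CPM against 98.9, 93.0 and 24.1 CPM, the last in sample 24, which the authors left out.

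A test of the interaction compared the HOIL1 effect with and without epithelial Il4ra. No gene of 16060 passed in edgeR's quasi-likelihood test, and 703 had an unadjusted p under 0.05. For Clca1 the difference was -6.49 on the log2 scale (SE 1.59, adjusted p = 1.00, edgeR), for Ang4 -3.93 (SE 1.00) and for Tnfrsf1a 1.23 (SE 0.36). For Nmur1 it was -1.19 (SE 0.91) and for Klrg1 -1.07 (SE 0.68). The effects in f/f mice were thus not shown to differ from those in ΔIEC mice for any gene after adjustment.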

How the data were processed

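RNA from sorted CD45+ cells was sequenced by poly-A selected, paired-end RNA-seq. Per the study's methods, adapters were removed by cutadapt and STAR mapped the reads on mm10 (GRCm38), and the authors deposited unnormalized featureCounts read counts per gene. The strand setting and the treatment of multiply mapping reads are not given in the sources used here. Of 39056 genes, 38872 were matched to the annotation. Genes were kept by filterByExpr (minimum count 10, minimum total count 15), scaled by TMM and fitted over all 12 CD45+ samples in 4 groups with glmQLFit and glmQLFTest of edgeR 4.0.16 (R 4.3.3). The threshold was a Benjamini-Hochberg adjusted p of 0.05. Each SE was derived from the test, as the absolute log2 fold change divided by the square root of its F statistic. The other tests were the exactTest and likelihood ratio test of edgeR and DESeq2 1.42.0. The procedure was run on simulated counts with known changes, a fixed spread between samples and no differences in cell composition. That run does not measure its power on these samples. Named genes were those the study names for these cells, Ptprc, sex-linked genes, up to 15 protein-coding genes in each direction by p, and first-written or extreme members of the 31 gene lists. Retnla was added after its values were seen. Members and lists were chosen with earlier results of these data known. The labels do not state that each sample was 1 mouse, but the study's legend for its plot of these levels gives 1 mouse per symbol. The p-values measure the spread between these samples. Counts without molecular identifiers give bounds for counting error only. Columns with values of the sorted CD45- cells were not used here, and 3 list members are counted but not reported here by name.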

Additional observations from a re-analysis of the deposited data

How the results depend on the processing

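Depth ran from 27191458 to 76807504 counts, so that genes near the level of 3 counts rest on few reads, and 3 samples a group limit the precision of all values. The count of genes called higher, 0 in edgeR's quasi-likelihood test, was 14 by exactTest on the 6 samples, 28 by exactTest without sample 13, 7 by the likelihood ratio test and 43 by DESeq2, and stayed at 0 under the other settings. The count called lower, 1, was 2, 4, 2 and 20 by the same tests. It was 0 without samples 13 and 24, with only the 6 or only the 5 f/f samples in the fit, under scaling to total counts, with Xist as a covariate, and without samples 13 and 14, a setting chosen after seeing the data. With each f/f sample left out in turn it ran from 0 to 1, with 0 without sample 13 or 15, and the log2 fold change of Rbck1 stayed between -4.47 and -3.89 over all settings. Over the genes taken by p, those the study names, Ptprc and the few others picked for the text, without other list members, 698 values kept their side of the threshold, 50 passed it only under the alternative and 8 no longer passed it. Scaling to total counts moved the median of all genes to 0.16, that of the TNF receptor list to 0.16 and that of genes near Rbck1 to 0.0949. With each f/f sample left out in turn, which for samples other than 13 was chosen after seeing the data, the ILC2 median ran from 0.427 (without sample 14) to 1.83, that of type 2 cytokines from 0.0676 to 2.19, of receptors for signals to ILC2 from 0.124 to 1.19, and that of NF-kB genes from -0.716 to 0.0142 (without sample 19). For ILC3 it ran from -0.850 to 0.780, for NK cell and ILC1 from -0.143 to 1.54, for intraepithelial T cell from -1.14 to 1.08 and for regulatory T cell genes from -0.752 to 1.09. For B cell genes it ran from 1.16 to 2.70 and for secretory epithelial genes from 1.72 to 2.96. For dendritic cell genes it ran from -0.324 to 0.265, for eosinophil from 0.0959 to 1.12, for MHC class II from -0.477 to 0.213, for enterocyte from -0.205 to 1.42, for stromal from -0.119 to 1.08 and for red blood cell genes from 0.0615 to 1.7. The causes were not tested. No paired analysis was possible because the sample numbers are unique and the groups share none, and the labels do not give which samples were littermates.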

Other observations

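Retnla, which encodes the RELMα protein of alternatively activated macrophages and was picked after its values were seen, was at 0.533, 2.92 and 8.99 CPM in Hoil1+/+ f/f and at 206, 9.71 and 9.07 CPM in Hoil1-/- f/f samples. The 3 Hoil1-/- samples were above, with 2 of them only just so, and the log2 fold change of 4.18 was 1.19 without sample 13.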
